A study of Mus musculus with 16 samples.

Results

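The IL-33 and IL-18 receptor genes lie side by side on mouse chromosome 1, in a cluster of 6 genes of the interleukin-1 (IL-1) receptor family. Its open chromatin was described in CD4+CD25+ Treg cells, the regulatory T cells that restrain immune responses. The members were all listed regions that overlap the window from 40.1 to 40.62 Mb of chromosome 1 on mouse assembly mm9. There were 52 such regions of 75363 in all, or 0.069% of the list. The assay was ATAC-seq, which uses a transposase to tag DNA left free of nucleosomes.

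The Treg cells came from C57BL/6 mice with no genetic change named in the labels. The groups were Treg cells of epididymal visceral adipose tissue (VAT), of injured hindlimb skeletal muscle, and of colonic lamina propria in groups titled Nrp1p and Nrp1n. The titles refer to a receptor, Nrp1, often used to tell Treg cells of thymic origin apart. Each of these 4 groups had its partner group of splenic Treg cells from the same animals, which made 16 samples from 8 mice in 8 groups of 2. The deposited list used here gives positions for the series as a whole, with no value for any sample. A region therefore cannot be assigned to a tissue or to the spleen, no replicate error can be given, the depth behind each region is unknown, and no tissue was tested against its spleen.

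Receptors of this family sit in the cell membrane, bind a cytokine outside the cell with immunoglobulin domains, and signal inside it through a domain shared with Toll-like receptors. A ligand-binding chain usually pairs with an accessory chain before a signal is passed on. Il1rl1 encodes ST2, the ligand-binding chain for IL-33, a cytokine released by damaged barrier and stromal cells. ST2 is known as a marker of many Treg cells in fat, muscle and gut, and IL-33 is known to support Treg cells in these tissues.

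In the gene table used for names, the 6 protein-coding genes follow each other with no other protein-coding gene among them, and their start sites were all on the plus strand. Il1r2, which encodes a decoy receptor that binds IL-1 without signalling, comes first. Il1r1, the signalling receptor for IL-1, is next, followed by Il1rl2, the ligand-binding chain for IL-36. Il1rl1 comes after Il1rl2. Il18r1 and Il18rap, the ligand-binding and accessory chains for IL-18, close the cluster. Map4k4, which encodes a protein kinase, precedes the cluster and Slc9a4, a sodium-proton exchanger gene, follows it. That table is of assembly GRCm38.p6, so it was used for names, order and strand and not for positions on mm9. On mm9 the definition of the window places only Il1rl1, near 40.49 to 40.52 Mb, to 2 decimals of a megabase. The other genes are placed here only as lying before or after that 30 kb stretch.

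The table of promoter sequences held 10 entries for the 6 genes, and Il1rl1 had a pair of start sites. In the mouse, the distal start of Il1rl1 is known mainly for the membrane receptor ST2 and the proximal one mainly for its soluble form. The 250 bases before each of these starts are shown because the largest group of regions described below contains the Il1rl1 stretch. They are RefSeq sequences of the plus strand of GRCm38.p6, where they span chr1:40429320-40429569 (first start) and chr1:40439379-40439628 (second start). These positions cannot be set against the mm9 positions of the regions, so whether a region covers either promoter is not known here. Capitals mark matches to the motif letters searched for.
Il1rl1 first start: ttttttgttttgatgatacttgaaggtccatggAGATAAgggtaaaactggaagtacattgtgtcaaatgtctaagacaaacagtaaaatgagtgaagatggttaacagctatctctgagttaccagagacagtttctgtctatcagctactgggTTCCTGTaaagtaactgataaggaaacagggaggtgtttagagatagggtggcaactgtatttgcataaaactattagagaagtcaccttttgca
Il1rl1 second start: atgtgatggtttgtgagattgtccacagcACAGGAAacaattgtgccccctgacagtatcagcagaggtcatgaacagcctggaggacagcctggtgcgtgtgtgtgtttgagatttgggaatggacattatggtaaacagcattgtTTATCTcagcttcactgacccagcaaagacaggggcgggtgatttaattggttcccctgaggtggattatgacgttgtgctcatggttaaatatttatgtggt
Both sequences held the GATA letters AGATAA on 1 strand or the other, and both held the ETS letters ACAGGAA on 1 strand or the other, with no overlap. GATA and ETS are families of transcription factors used throughout T cells. The GATA match began 217 bases before the first start, and 103 bases before the second. The ETS match began 95 bases before the first start, and 221 before the second. Over all 32851 promoter entries in the table, the same 250 bases held the GATA letters in 9.99% and the ETS letters in 7.2%.

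The motifs of AP-1 (TGANTCA, held by 6.75% of all entries) and RUNX (AACCACA, held by 4.4%) were searched on both strands as well, and neither was in these sequences. Besides Il1rl1, the only matches among the 10 entries of the cluster were the ETS letters at the first start of Il1r1 and, on both strands, before the start of Il18rap. The share of all entries with a match to any of the 4 motifs was not computed, so the cluster is not compared with it. A match is a string of letters, and factor binding was not measured.

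The window held more listed regions for its length than its chromosome as a whole. Its 520 kb held 10.0 regions per 100 kb, against 2.62 per 100 kb on the rest of chromosome 1, a ratio of 3.82. Over chromosomes 1 to 19 and X together there were 2.86 regions per 100 kb. Regions covered 2.15% of the bases of the window and 0.531% of those of the rest of chromosome 1. No test was made of these differences, since the list has no replicates.

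The genome was also divided into windows of the same length, of which this was 1. Of the other 5055 windows on chromosomes 1 to 19 and X, 268 (5.3%) held 52 regions or more. The median over all 5056 windows was 7 regions, 1630 of them held none, and the window with the most held 111. On chromosome 1, 17 other windows (4.51%) held as many. The IL-1 receptor family window was thus in the upper range of these windows but well below the densest.

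**Figure D1:**
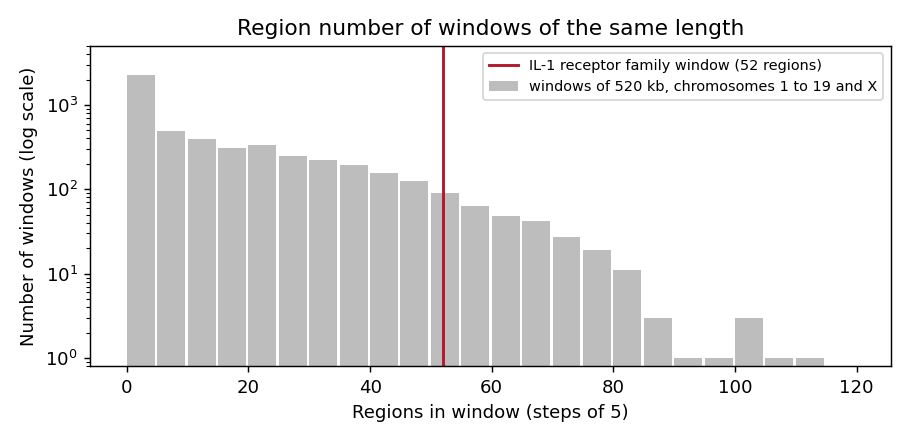
Number of 520 kb windows (vertical axis, log scale) by the regions each holds (horizontal axis, steps of 5) on chromosomes 1 to 19 and X. The red line marks the IL-1 receptor family window at 52 regions, and 5.3% of the other windows held as many or more.

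Listed regions were as frequent just before the window and thinned out after it. The 520 kb before the window, on the Map4k4 side, held 55 regions. The 520 kb after it held 7, and the next pair of windows held none. The last region before the window ended at 40090462, 18.6 kb short of its first region. The first region after the window started at 40636694, 34.9 kb beyond its last.

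Within the window the regions were gathered at both ends, with a long sparse stretch in the middle. A first group of 14 regions lay at the start of the window, on the Il1r2 side. Only 4 regions lay in the middle. The remaining 34, or 65.4% of all, lay from 40435720 to 40601778. This 166 kb is 31.9% of the length of the window. Its edges were drawn from the regions counted in it, after they had been seen, so the pair of shares is a description. It contains the Il1rl1 stretch and extends over the side of Il18r1 and Il18rap. It held 20.5 regions per 100 kb, against 21.7 in the first group. The groups are those linked by gaps under 25 kb, except that the lone region and the group of 3 in the middle are counted as 1 group. With links of 20 kb, chosen after seeing the data, the group around Il1rl1 parted into 20 regions (38.5% of the window's regions) and 14, at the 20.5 kb gap described below. The first group parted as well with these links, at a gap of 24.6 kb that is only just under 25 kb.

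**Figure D2:**
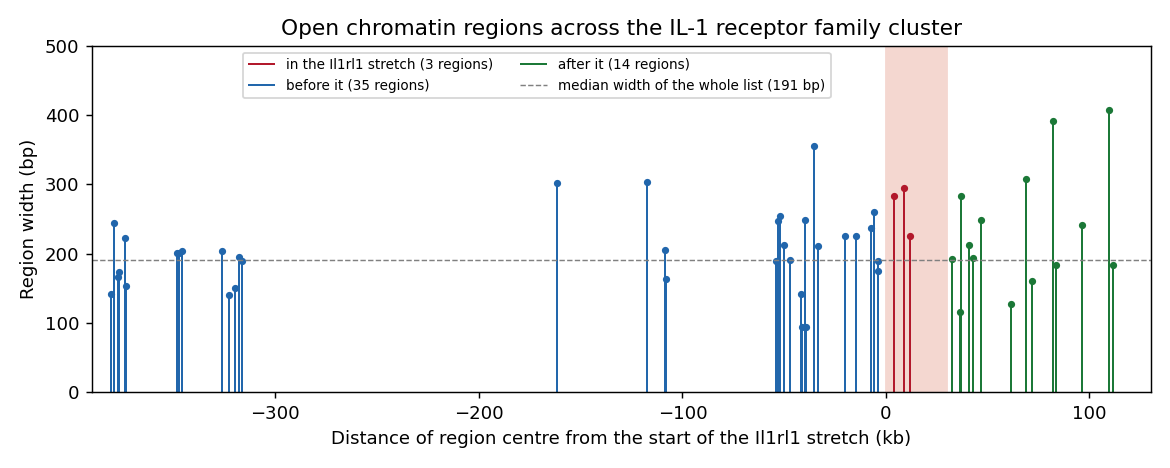
Width in base pairs (vertical axis) of each of the 52 regions at its distance in kb from the start of the Il1rl1 stretch (horizontal axis; negative values lie toward Il1r2). The shaded band is the 30 kb stretch of Il1rl1, which holds 3 regions, with 35 before it and 14 after it, and the dashed line is the median width of the whole list, 191 bp.

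Divided at the edges of the Il1rl1 stretch, the window held 35 regions in the 390 kb before it (8.97 per 100 kb), 3 in its 30 kb (10.0 per 100 kb) and 14 in the 100 kb after it (14.0 per 100 kb). The stretch held 5.77% of the regions (exact 95% interval 1.21 to 15.9%) in 5.77% of the length of the window. With the edges as given, its density was thus that of the window as a whole, but this rests on 3 regions and on rounded edges. Moved by 5 kb toward Il1r2, the stretch held 5 regions (9.62%). Moved by 5 kb the other way, it held 3 (5.77%). The part before the stretch was the least dense as a whole, as it includes the sparse middle. Its regions nearest to Il1rl1 stood closer together. There 17 regions lay in 50.7 kb, from 40435720 to 40486410, or 33.5 per 100 kb, and they covered 7.0% of its bases. The 14 regions after the stretch lay in 79.4 kb, from 40522359 to 40601778, or 17.6 per 100 kb. These last 2 spans run from their own first to their own last region, which raises their densities over those with fixed edges. Because the genes run in the plus direction, the 17 regions lie toward the start of Il1rl1.

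Those 17 regions came in a pair of runs. The first run, of 11 regions from 40435720 to 40456756, was the largest set of the window linked at gaps under 12500 bp, and it had 5.23 regions per 10 kb. Of 24047 such sets on chromosomes 1 to 19 and X, lone regions included, 967 (4.02%) held 11 regions or more. It opened with 5 regions between 40435720 and 40443240, whose gaps were between 573 and 3227 bp. It ended with 6 between 40448344 and 40456756. The widest region of the run, at 355 bp, was the one from 40454283 to 40454637. The narrowest were a pair of 94 bp regions, from 40448978 to 40449071 and from 40450532 to 40450625. The second of these lay 152 bp from a 248 bp region.

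A gap of 13.2 kb parted this run from the next, of 9 regions (17.3% of the window's regions), which led up to the stretch and into it. Its first regions, each 225 bp wide, started at 40469941 and 40475425. Then 4 regions stood within 4.06 kb, at 40482347 to 40482583 (237 bp), 40484198 to 40484457 (260 bp), 40485848 to 40486022 (175 bp) and 40486222 to 40486410 (189 bp). The last pair was 199 bp apart. The final region ended 3590 bp before 40.49 Mb, which is within the rounding of that edge. With the edges widened by 5 kb on both sides, the stretch held 6 regions (11.5% of the window's regions), against 3 (5.77%) as given. The 3 added are the pair 199 bp apart and the first region beyond the stretch, which starts 2358 bp after 40.52 Mb. From this list these 3 can therefore be placed neither inside nor outside Il1rl1. With the edges narrowed by 5 kb, the stretch held 2 regions (3.85%). The region that drops out, from 40493926 to 40494209, can likewise not be placed.

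The 3 regions in the stretch were all in its first 12 kb, and all were wider than the median of the list. The first, from 40493926 to 40494209, was 284 bp wide. The second, from 40498706 to 40499000, was 295 bp wide, and the third, from 40501591 to 40501816, was 226 bp wide. Their gaps were 4496 and 2590 bp. No region was listed in the 20.5 kb from 40501817 to 40522358, which covers the rest of the stretch. Since the genes point in the plus direction, the empty part lies toward the 3′ end of Il1rl1.

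Regions resumed at the far edge of the stretch, toward the IL-18 receptor genes. The first, from 40522359 to 40522550 (192 bp), is the one within the rounding of that edge. It opened a run of 6 regions over 14.2 kb that ended at 40536601. In that run a 116 bp region (40526563 to 40526678) lay 83 bp before a 284 bp region (40526762 to 40527045). Beyond a gap of 14.9 kb, 8 more regions were spread over the remaining part, up to 40601778, in sets of 1 to 5 linked at 12500 bp. The last of them, and of the window, ran from 40601595 to 40601778 (184 bp). The first 3 steps of 20 kb counted away from the stretch held 6, 2 and 3 regions after it, and 6, 4 and 7 before it.

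**Figure D3:**
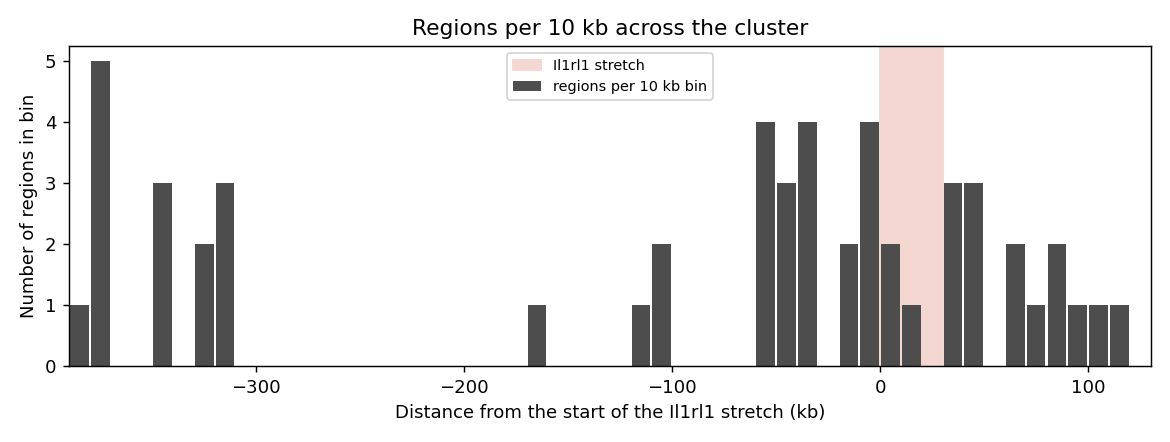
Number of region centres in each 10 kb bin (vertical axis) at its distance in kb from the start of the Il1rl1 stretch (horizontal axis). Of 52 bins, 29 are empty and 9 hold 3 or more regions, and those 9 contain 32 of the 52 regions.

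Of the 5 widest regions of the cluster, 3 lay on the IL-18 receptor side. The widest spanned 407 bp, from 40599546 to 40599952. The second spanned 391 bp, from 40571935 to 40572325. After these came the 355 bp region of the run before Il1rl1. Next was a 308 bp region that ran from 40558425 to 40558732. A 304 bp region lay in the sparse middle, from 40372328 to 40372631, and its neighbour there, from 40328030 to 40328331, measured 302 bp. Of these 6 regions of 300 bp or more, 3 lay after the Il1rl1 stretch, 1 just before it, 2 in the middle and none among the 14 at the start of the window.

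Over the window the median width was 204 bp, with a 95% interval of 189 to 225 bp from binomial ranks. The median of the whole list, 191 bp, lies inside that interval. Regions of 300 bp or more made up 11.5% of the window (exact 95% interval 4.35 to 23.4%) and 6.32% of the list, which also lies inside. Both intervals treat regions as independent draws, and not as samples. Narrow regions, of 150 bp or less, were as frequent in the window (8 of 52, 15.4%) as in the list (15.4%). The same 8 were the regions of the window with 1 of the 12 exact widths that hold unusually many regions of the list. Such widths were thus also about as frequent in the window (15.4%, exact 95% interval 6.88 to 28.1%) as in the list (14.2%). By group of regions, the median width was 192 bp at the start of the window, 253.5 bp over the 4 of the middle and 219 bp around Il1rl1.

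The first group, on the Il1r2 and Map4k4 side, held 14 regions in 64.5 kb, from 40109062 to 40173550, or 21.7 per 100 kb. Its densest 10 kb, from 40110001 to 40120000, held 5 regions, the most of any bin of the window. The next densest bins, with 4 each, were at 40430001 to 40440000, 40450001 to 40460000 and 40480001 to 40490000. The last of these holds the pair that cannot be placed relative to the start of Il1rl1. The closest pair of the window was here as well, with 31 bp between a region ending at 40112923 and the next. The first region of the window, from 40109062 to 40109203, was 142 bp wide. Linked at 25 kb, these regions belonged to a set of 41 that began at 39952473, outside the window, so they continued the open stretch on the Map4k4 side. They fell into sets of 6, 3 and 5 when linked at 12500 bp.

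The middle of the cluster, between this group and the run before Il1rl1, had the longest empty stretches. The longest ran from 40173551 to 40328029 and measured 154 kb, beyond a 189 bp region that started at 40173362. The second, of 53.8 kb, ran from 40381944 to 40435719. The third, of 44.0 kb, ran from 40328332 to 40372327. By their order, Il1r1 and Il1rl2 lie between Il1r2 and Il1rl1, but on mm9 neither gene could be placed on these stretches from the tables used here. An empty stretch is one where no region was listed, and was not shown to be closed. Near the second gap, a 205 bp region (40381337 to 40381541) and a 163 bp one (40381781 to 40381943) were 239 bp apart.

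**Figure D4:**
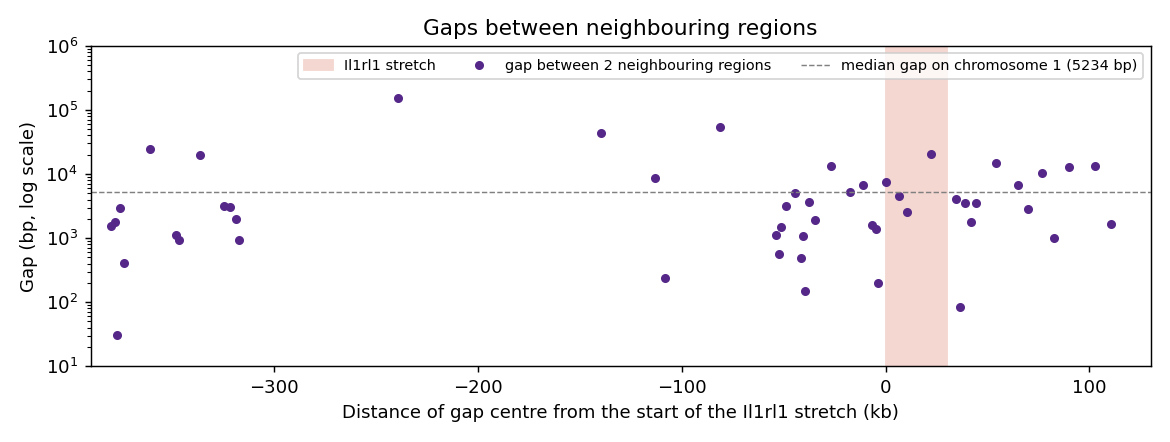
Gap between neighbouring regions in base pairs (vertical axis, log scale) at the distance in kb of its centre from the start of the Il1rl1 stretch (horizontal axis). The dashed line is the median gap on chromosome 1, 5234 bp, and the 3 longest gaps, of 154, 53.8 and 44.0 kb, all lie before the run that leads up to Il1rl1.

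Over all neighbour pairs, those empty stretches included, the median gap was shorter in the window than on chromosome 1, but the closest spacing was less frequent. The median gap over the 51 neighbour pairs was 2915 bp, against 5234 bp over the 5196 pairs of chromosome 1. Of the pairs in the window, 41 (80.4%) had a gap under 12500 bp, against 67.9% on chromosome 1. Gaps under 2000 bp made up 43.1% of the pairs of the window and 34.9% of those of chromosome 1. Gaps under 500 bp were found for 7 pairs of the window (13.7%), against 20.6% on chromosome 1. These shares describe 1 list, and their difference was not tested.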

How the data were processed

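ATAC-seq was done on Treg cells of 16 samples from 8 mice. The file used here is a deposited list of region positions by the authors, whose header names a chromosome, a start and an end. It has no score and no column of any sample. The labels name signal tracks of the samples, which were not used here. Build mm9 and the tools HOMER 4.6, Picard 1.130, SAMtools 1.3, Bowtie2 2.2.4 and cutadapt 1.8.3 are named in the submitters' processing notes. How regions were called, pooled across samples or merged is not given in the sources used here, and these steps decide which regions are listed and how wide they are.

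Starts were raised by 1 base to print 1-based positions. Regions overlapping the window were kept, assigned to stretches by their centre, and linked when the gap was under 12500 bp (alternatives 5 and 25 kb). Windows of 520 kb were laid so that the described one was among them. Chromosome length was the end of the last region. Shares have exact Clopper-Pearson intervals. Widths holding unusually many regions were those with over 5 times the median count at widths within 8 bp, with that median taken as at least 10. Promoters came from RefSeq (GRCm38.p6), and all 6 genes matched by symbol. Named regions were all those in the Il1rl1 stretch, the 5 widest, those beside the 3 longest gaps, the first and last, and the 3 fullest bins of 10 kb. Others named in the runs were chosen after their values were seen, as were the promoters printed and the motifs. The window and lists were chosen with earlier results of these data known. The comparison of tissue with spleen was planned but not run, since this list holds positions alone. The sequences of the regions were planned but not printed, since no mm9 genome was at hand. Counting was checked on 20 simulated layouts, and all 20 were recovered. Python 3.11.15, pandas 2.3.3, numpy 2.4.6, scipy 1.17.1 and matplotlib 3.10.9 were used.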

Additional observations from a re-analysis of the deposited data

How the results depend on the processing

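No paired analysis was possible because positions alone were analysed and the signal tracks named in the labels were not used here, so the tissue and spleen samples of a mouse could not be set against each other and leaving out a replicate could not be tried. Of 44 alternatives computed over all results, 35 stayed within 1.5 times for counts or within the 95% interval for other values. With only regions of median width or more, the window held 33 regions and the largest set held 7. The densities were then 5.38 per 100 kb before the Il1rl1 stretch and 9 after it, against 8.97 and 14.0 with all regions. These falls follow from fewer regions. The stretch itself kept its 3 regions (9.09% of the 33) and its 10 per 100 kb. It was then the densest of these parts, whereas with all regions the part after it was. Counting only regions of the window, links of 5 kb and 25 kb gave largest sets of 6 and 34 regions. At 25 kb the 14 regions at the start of the window belonged to a larger set of 41 that began outside it. With links of 20 kb, chosen after seeing the data, the group around Il1rl1 held 38.5% of the regions. Ranked by bases in regions, 4.31% of the other windows had as much as this one. Merging under 500 bp raised the median width to 226 bp, by construction. The ratio to the rest of chromosome 1 was between 3.58 and 4.65 under all 6 alternatives run. Shifting or resizing the edges of the Il1rl1 stretch by 5 kb gave it 2 to 6 regions.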
